A study of Mus musculus with 21 samples.

Results

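The NMDA receptor subunit genes studied here were Grin1, Grin2a, Grin2b, Grin2c, Grin2d and Grin3a, taken by gene symbol from a table of 24984 genes. All 6 members were found and all 6 passed the filter on low counts that 16959 genes passed. Their nascent RNA was followed across 20 of the 21 libraries. The library left out was replicate 3 of the MM401 group kept in water over 4 h, which held 316741 counts in genes against 49886348 to 87939384 in the others.

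The libraries came from BrU-seq, a nascent RNA assay: newly made transcripts carry bromouridine, are captured through it and are sequenced, so that intronic reads count too. The cells were cortical cultures of CD1 mice at day 17 in vitro, and every culture received 2 mM bromouridine for the final 30 min. Cultures were first given either DMSO, the solvent control, or 25 µM MM401 over 30 min, and then either 40 µM bicuculline or sterile water as its vehicle. The 7 groups were DMSO with water 4 h, DMSO with bicuculline 1 h, DMSO with bicuculline 4 h, MM401 with water 1 h, MM401 with water 4 h, MM401 with bicuculline 1 h and MM401 with bicuculline 4 h. Each had 3 biological replicates of mixed sex, per the labels, and a DMSO group with water at 1 h was not analysed here. MM401 blocks the binding of the histone methyltransferase MLL1 to its partner WDR5. Bicuculline blocks GABA-A receptors, which removes inhibition and raises the firing of the network.

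NMDA receptors are ion channels opened by glutamate together with glycine or D-serine, and they let calcium into the neuron when it is depolarised. Every receptor holds the obligatory GluN1 subunit, encoded by Grin1, which binds the co-agonist. The GluN2 subunits, encoded by Grin2a to Grin2d, bind glutamate and set how long the channel stays open, and cortical neurons shift from GluN2B towards GluN2A as they mature. GluN3A, encoded by Grin3a, gives receptors that pass little calcium and is most abundant in young neurons.

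All 6 members lie on the minus strand of mouse build mm10, and counts were taken over the whole span of each gene, introns included. Grin2b spans 460 kb (chr6:135713220-136173545), Grin2a 427 kb (chr16:9567897-9995132) and Grin3a 184 kb (chr4:49661610-49845769). Grin2d spans 34.2 kb (chr7:45832482-45866681), Grin1 28.0 kb (chr2:25291176-25319187) and Grin2c 18.1 kb (chr11:115249168-115267243). The span of Grin1 is shared with Grin1os, an annotated gene of 7.71 kb on the opposite strand, which had 0 to 7 counts, and with Lrrc26, which had 0 or 1. The span of Grin3a contains Ppp3r2, 3.24 kb on the same strand, with 0 counts in all 20 libraries. How reads in such shared stretches were assigned is not given in the sources used here, so the counts of Grin1 and Grin3a are uncertain to that extent.

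Promoters of 300 bases (250 before and 50 after the annotated start) were matched by symbol for 3 of the 6 members, Grin1, Grin2c and Grin2d, from RefSeq on GRCm38.p6. They are shown to set Grin1, which was higher after 4 h of bicuculline, beside the sparsely transcribed Grin2c and Grin2d. Searched on both strands were TGACGTCA (the cyclic AMP response element), TGACG (the core contained in it), TGANTCA (AP-1), GGGCGG (the GC box) and GCGCATGC (NRF1). Matches are in capitals and every sequence is on its gene's own strand, at chr2:25319138-25319437, chr11:115267194-115267493 and chr7:45866632-45866931.
Grin1: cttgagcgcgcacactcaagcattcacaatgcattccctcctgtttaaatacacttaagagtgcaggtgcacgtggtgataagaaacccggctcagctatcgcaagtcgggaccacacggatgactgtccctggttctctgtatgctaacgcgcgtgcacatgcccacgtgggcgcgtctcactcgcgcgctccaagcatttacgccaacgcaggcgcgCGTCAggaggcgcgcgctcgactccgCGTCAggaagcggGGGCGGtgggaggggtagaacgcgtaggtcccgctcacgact
Grin2c: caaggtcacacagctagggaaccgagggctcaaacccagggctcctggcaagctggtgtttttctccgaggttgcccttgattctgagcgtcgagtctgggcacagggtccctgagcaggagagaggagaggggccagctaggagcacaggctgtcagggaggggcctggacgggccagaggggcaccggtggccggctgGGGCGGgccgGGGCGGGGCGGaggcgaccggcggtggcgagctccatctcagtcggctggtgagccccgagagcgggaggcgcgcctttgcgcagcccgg
Grin2d: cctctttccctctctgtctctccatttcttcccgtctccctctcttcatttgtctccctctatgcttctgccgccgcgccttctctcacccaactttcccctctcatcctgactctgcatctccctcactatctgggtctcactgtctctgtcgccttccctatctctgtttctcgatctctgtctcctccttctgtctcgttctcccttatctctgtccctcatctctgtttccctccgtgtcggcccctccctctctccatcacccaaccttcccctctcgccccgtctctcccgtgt
The Grin1 promoter held TGACG 2 times, read on the opposite strand and beginning 31 and 5 bases before the start, and 1 GC box beginning at base 8. The Grin2c promoter held 3 GC boxes, of which the last pair overlap by 1 base, and the Grin2d window held none of the 5 motifs. GC content was 60.7% for Grin1, 70.0% for Grin2c and 56.0% for Grin2d, against a median of 52.7% over the 32851 promoters of the table. Of all those promoters 35.7% held a GC box, 20.8% TGACG, 7.81% the AP-1 motif, 2.71% the NRF1 motif and 1.79% the full cyclic AMP response element.

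Activity genes give the setting for the members. After 1 h of bicuculline in DMSO, Npas4, an activity-induced transcription factor, was higher by 4.43 ± 0.19 (log2 fold change ± SE, adjusted p = 1.62e-11). Bdnf, a neurotrophin gene, was higher by 2.66 ± 0.11 after 4 h (adjusted p = 2.08e-14). CPM are counts scaled to a fixed library size, here with TMM, which sets the bulk of genes equal between libraries. Summed over 5 markers, neurons gave 2550 to 4278 CPM per library, 6 astrocyte markers 425 to 873, 7 oligodendrocyte-lineage markers 168 to 226 and 5 microglia markers 26.2 to 42.5. Endothelial and fibroblast markers, 4 of each, summed to at most 3.46 and 5.24 CPM, with Cldn5 at 0 to 0.0449 and Lum at 0 to 0.0732. In whole cultures, fewer cells of a type and less RNA per cell cannot be told apart.

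The members fell into 3 levels of nascent RNA. Compared per kb of gene span, Grin2b was the highest, with a median of 3.94 CPM per kb over the 20 libraries and a range of 3.21 to 4.45. Grin1 followed with a median of 2.91 CPM per kb (2.35 to 3.52) and Grin2a with 1.87 (1.3 to 2.56). The ranges of these 3 members overlap their neighbours, but none reaches down to Grin3a. Grin3a had a median of 0.467 CPM per kb (0.361 to 0.713), and lay clear of the pair below it. Grin2c (0.0851, range 0.0642 to 0.129) and Grin2d (0.0737, range 0.0564 to 0.114) could not be ordered against each other. In the water libraries Grin2b was above 96.7% of the tested genes in CPM per kb, Grin1 above 93.2%, Grin2a above 87.8% and Grin3a above 43.0%, while Grin2c and Grin2d were each above 20.6%. The remaining subunit gene, Grin3b (GluN3B), which is not among the 6 members, had 1 to 28 counts per library.

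**Figure D1:**
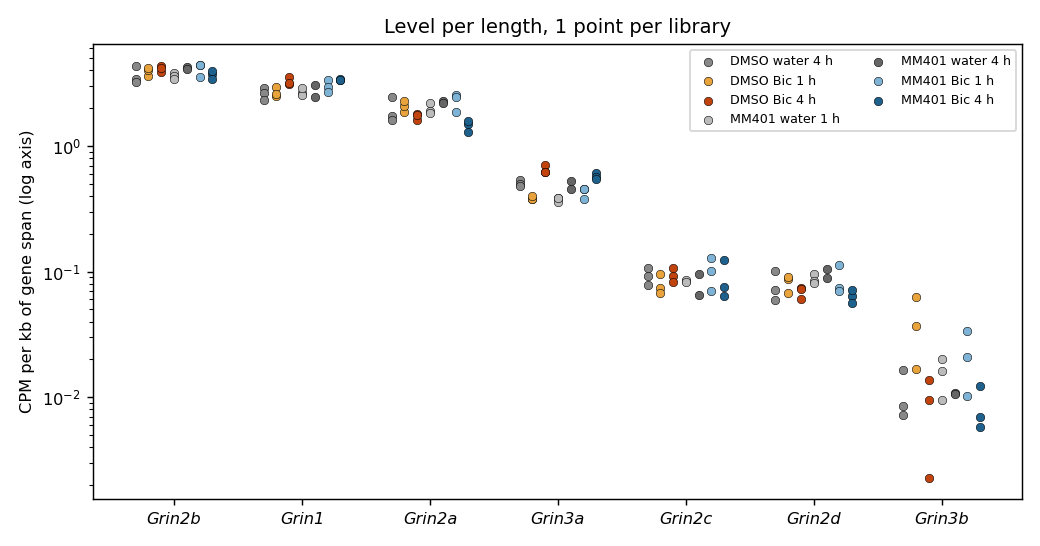
Nascent RNA per length for the 6 members and Grin3b: the vertical log axis gives CPM per kb of gene span, and each point is 1 of the 20 libraries, coloured by group. Grin2b, Grin1 and Grin2a have medians between 1.87 and 3.94, Grin3a lies lower with a median of 0.467, and Grin2c and Grin2d lie together at or below 0.129.

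Among the 4 GluN2 genes, Grin2b took 63.4% ± 1.22 (SD, n = 3) of the summed level per kb in DMSO with water 4 h and Grin2a took 33.6% ± 1.53. Grin2c and Grin2d gave 1.67% ± 0.47 and 1.33% ± 0.14. The 2 water groups of MM401 gave like shares, with Grin2a at 34.2% ± 0.95 at 1 h (n = 3) and 34% ± 0.24 at 4 h (n = 2).

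Most member calls against water came at 4 h of bicuculline, and which members were called depended on the scaling between libraries. After 4 h in DMSO, 2 of the 6 members were called with TMM, Grin1 and Grin3a, both higher, and with library totals 2 others, Grin2a and Grin2d, both lower. Called here means an adjusted p under 0.05 from edgeR's quasi-likelihood test, with the Benjamini-Hochberg method over all 16959 genes. In that comparison 49.2% of all tested genes were called, so the share of members is near that of genes at large. After 4 h in MM401, 4 members were called against 44.6% of all genes: Grin1 and Grin3a higher, Grin2a and Grin2d lower. With library totals 3 were called there, Grin2a, Grin2b and Grin2d, all lower. At 1 h in DMSO, set against water at 4 h, 1 member was called, Grin3a, which was lower, against 44.6% of genes. At 1 h in MM401, set against water of the same time, 0 members were called, against 39.9% of genes, or 8027 genes at an unadjusted p under 0.05. The median log2 fold change of the members was 0.061, 0.10, 0.18 and -0.023 for DMSO 1 h, DMSO 4 h, MM401 1 h and MM401 4 h, against -0.038, -0.024, -0.0018 and 0.016 over all tested genes. The numbers of members whose groups did not overlap were 1, 2, 0 and 5 in the same order, against 47.4%, 52.5%, 51.1% and 66.6% of all tested genes.

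**Figure D2:**
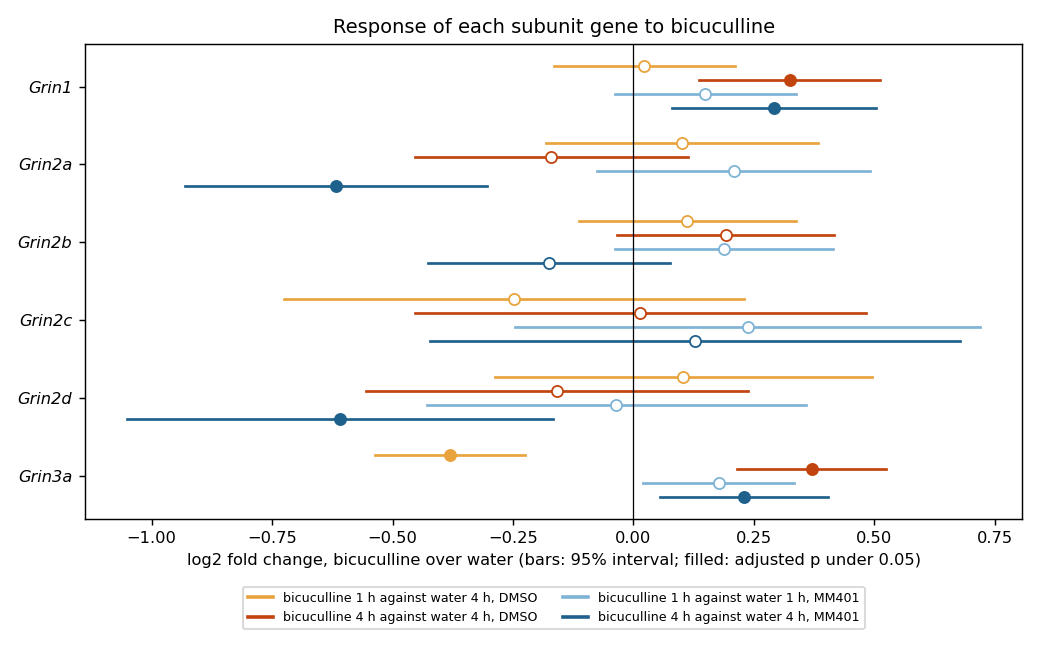
Response of each member to bicuculline in the 4 comparisons with water: the horizontal axis is the log2 fold change, points are estimates from edgeR, bars are 95% intervals and filled points have an adjusted p under 0.05. Grin1 and Grin3a lie to the right at 4 h in both pretreatments, Grin2a and Grin2d lie to the left in MM401 at 4 h, and Grin3a lies to the left at 1 h in DMSO.

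Scaling matters for these small changes. With plain library totals in place of TMM, the median of all tested genes moved from -0.038 to -0.23 (log2) in the DMSO comparison at 1 h, from -0.024 to -0.30 in the DMSO comparison at 4 h, from -0.0018 to -0.21 in MM401 at 1 h and from 0.016 to -0.059 in MM401 at 4 h. The split of called genes in DMSO at 4 h moved from 4014 higher and 4330 lower to 1820 higher and 7867 lower. At 1 h it moved from 3396 higher and 4161 lower to 1836 and 6818 in DMSO, and from 3070 and 3699 to 1276 and 6541 in MM401, while in MM401 at 4 h it went from 3898 and 3674 to 2794 and 4138. The changes below are therefore relative to the bulk of genes.

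**Figure D3:**
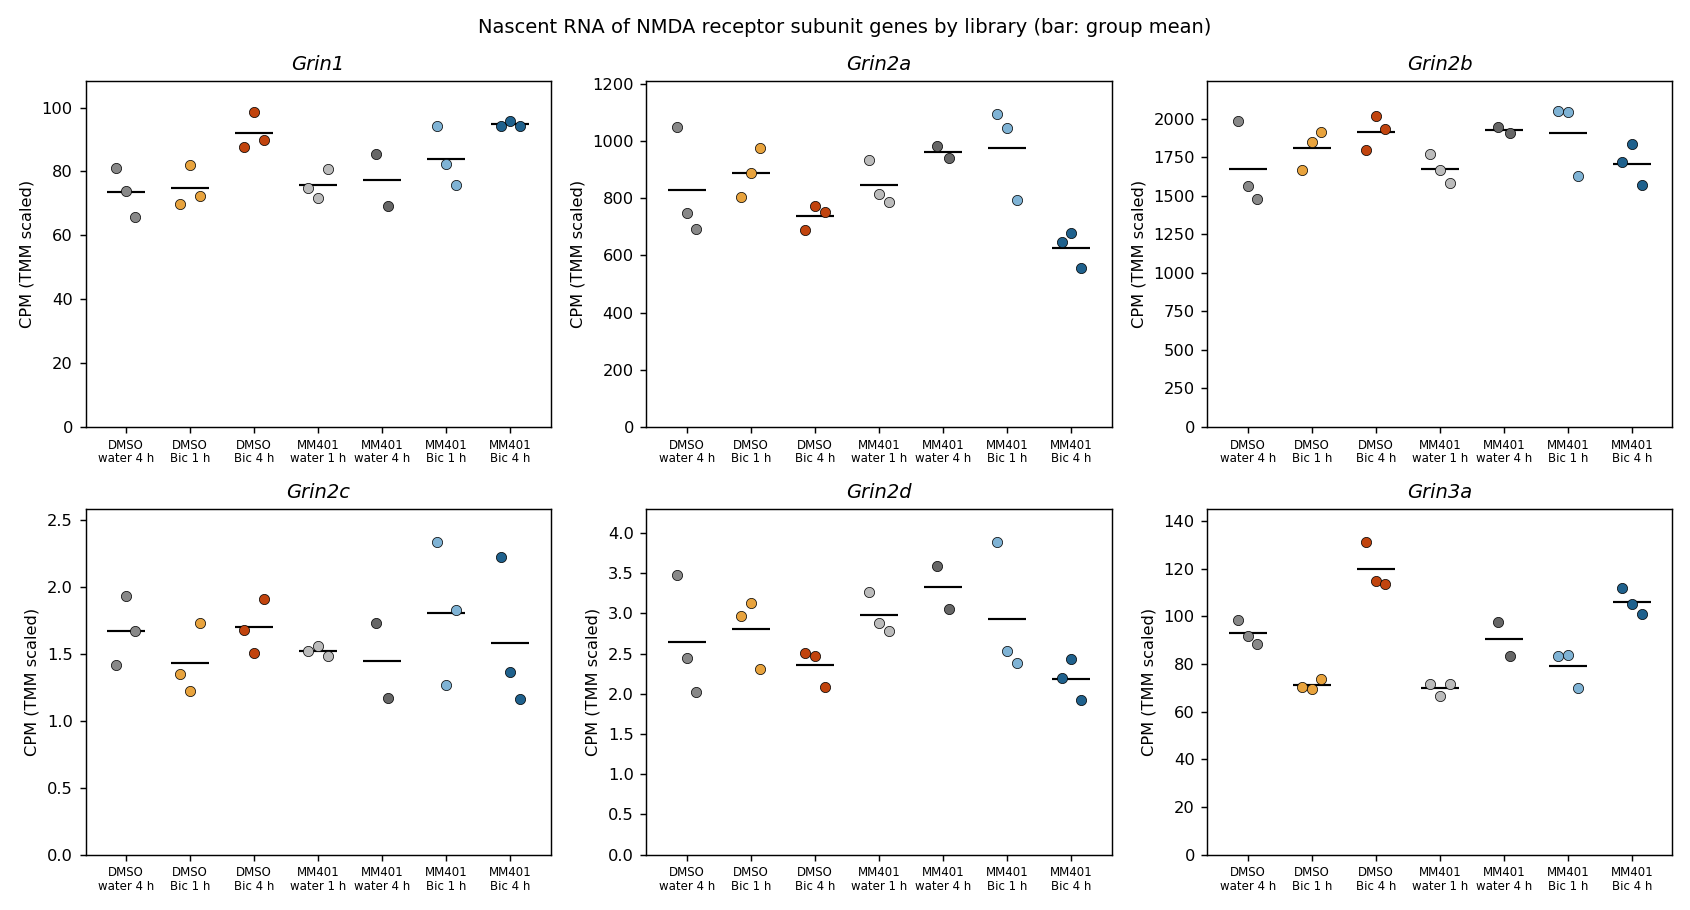
CPM of each member in each library: 1 panel per gene, the vertical axis starts at 0, points are the 20 libraries by group and bars are group means. Grin1 in bicuculline 4 h lies at or above 87.7 in every library, Grin3a is at its highest in bicuculline 4 h, and Grin2a is at its lowest in MM401 with bicuculline 4 h.

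Grin1, the gene of the obligatory subunit, rose after 4 h of bicuculline. In DMSO with water 4 h its 3 libraries gave 81.0, 74.0 and 65.7 CPM for replicates 1 to 3, and in DMSO with bicuculline 4 h they gave 87.7, 98.6 and 89.8. Every bicuculline library was above every water library. The difference was 0.32 ± 0.090 (log2 fold change ± SE, adjusted p = 0.00512), a rise of 25.2%, and under library totals without TMM it was 0.055 (adjusted p = 0.600). Without replicate 3 of DMSO with water the value was 0.22 and no longer passed (adjusted p = 0.0579).

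In MM401 the picture for Grin1 was alike. The 2 water libraries of 4 h gave 85.6 and 69.2 CPM and the bicuculline libraries of 4 h gave 94.2, 95.9 and 94.1. The groups did not overlap, and the 3 treated libraries lay within 2 CPM of each other. Here the difference was 0.29 ± 0.10 (log2, adjusted p = 0.0243), or 0.22 with library totals (adjusted p = 0.0674). It ran from 0.11 to 0.43 when single libraries were left out, and did not pass without replicate 2 of either group. At 1 h the DMSO libraries gave 69.7, 82.0 and 72.2 CPM, spread through the range of water at 4 h, with a log2 fold change of 0.022 ± 0.090 that turned to -0.16 under library totals. In MM401 water at 1 h gave 74.7, 71.7 and 80.8 CPM and bicuculline at 1 h gave 94.1, 82.3 and 75.6, which overlap. That log2 fold change was 0.15 ± 0.090 (adjusted p = 0.203), and -0.067 with library totals.

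Grin2a, the gene of the GluN2 subunit that gains weight as cortical synapses mature, was lower after 4 h of bicuculline in MM401. Its water libraries of 4 h gave 983 and 939 CPM and its bicuculline libraries gave 646, 678 and 557. The groups were far apart, and no library of any other group was as low as the highest of these 3 treated ones. Grin2a fell by 34.8%, a log2 fold change of -0.62 ± 0.15 (adjusted p = 0.00236). It passed without each of the 5 libraries in turn, from -0.68 to -0.54, and under library totals, at -0.69. With the shallow library added it was -0.43 and did not pass (adjusted p = 0.0960).

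In DMSO the same comparison was not settled for Grin2a. The water libraries gave 1048, 748 and 691 CPM and the bicuculline libraries of 4 h gave 688, 771 and 750. Replicate 1 of the water group stands well above the others, and the remaining water libraries lie among the treated ones. Its log2 fold change was -0.17 ± 0.14 (95% interval -0.45 to 0.11, adjusted p = 0.317). It was 0.033 without replicate 1 of the water group, while under library totals it was -0.43 and passed (adjusted p = 0.000752).

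That library, replicate 1 of DMSO with water, stood apart over all genes too. Set against the counts of replicates 2 and 3 of its group, it gave chi-square values per degree of freedom of 45.6 and 78.5, where 29.4 was the most that any other replicate pair reached. Its value for Grin2a was 1048 CPM and for Grin2b 1986 CPM, the highest of its group for both. At 1 h in DMSO Grin2a gave 805, 887 and 975 CPM, overlapping with water, and its log2 fold change was 0.10 ± 0.14 (adjusted p = 0.578), or -0.077 with library totals. Without replicate 1 of the water group it was 0.31 and passed (adjusted p = 0.0372). In MM401 Grin2a gave 934, 813 and 788 CPM in water at 1 h and 1093, 1044 and 792 in bicuculline at 1 h, with a log2 fold change of 0.21 ± 0.14 (adjusted p = 0.239) that was -0.0098 with library totals.

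Grin2b, the highest member and the gene of the GluN2 subunit of young synapses, showed no called difference in any comparison with edgeR, TMM and all 20 libraries. In DMSO with water it gave 1986, 1562 and 1478 CPM. With bicuculline it gave 1669, 1849 and 1914 CPM after 1 h and 1793, 2015 and 1929 after 4 h. The groups overlap because of replicate 1 of the water group, without which every treated library lies above every water one. At 4 h the log2 fold change was 0.19 ± 0.11 (95% interval -0.034 to 0.42, adjusted p = 0.154). It was 0.33 and passed without that library (adjusted p = 0.00799), and -0.073 under library totals. At 1 h it was 0.11 ± 0.11 (adjusted p = 0.427), 0.25 without that library (adjusted p = 0.0400) and -0.069 under library totals.

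In MM401 Grin2b gave 1768, 1666 and 1585 CPM in water at 1 h and 1947 and 1906 in water at 4 h. It gave 2048, 2040 and 1627 CPM in bicuculline at 1 h and 1720, 1832 and 1569 in bicuculline at 4 h. The treated libraries of 4 h all lie below the 2 water libraries of 4 h, and overlap those in water at 1 h. At 4 h the difference was -0.17 ± 0.12 (log2) (adjusted p = 0.253) and was -0.25 and called under library totals (adjusted p = 0.00905). At 1 h it was 0.19 ± 0.11 (adjusted p = 0.182), and -0.030 with library totals.

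Set against each other within a library, the GluN2A and GluN2B genes differed in balance after 4 h of bicuculline. The ratio of Grin2a to Grin2b, each per kb of span, does not depend on the scaling between libraries. In DMSO with water it was 0.569, 0.516 and 0.504, and with bicuculline 0.520, 0.517 and 0.549 after 1 h and 0.413, 0.412 and 0.419 after 4 h. In MM401 with water it was 0.569, 0.526 and 0.536 at 1 h and 0.544 and 0.531 at 4 h, and with bicuculline 0.575, 0.551 and 0.525 after 1 h and 0.405, 0.399 and 0.383 after 4 h. All 6 libraries of 4 h bicuculline lay below all 14 others, and the 1 h libraries lay among those in water.

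The planned test pooled 1 h and 4 h of bicuculline against water and was not passed. The difference in log2 ratio was -0.18 in DMSO (exact permutation test, two-sided, p = 0.274, 6 libraries against 3) and -0.21 in MM401 (exact p = 0.152, 6 against 5), both 0.274 after adjustment over the 2 tests. At 4 h alone the difference was -0.35 in DMSO (exact permutation p = 0.1, the smallest that 3 against 3 can give) and -0.45 in MM401 against all its water libraries (exact permutation p = 0.0179, the smallest possible). Against MM401 water of 4 h only, a comparison added after the values had been seen, it was -0.44 (exact permutation p = 0.1, the smallest that 3 against 2 can give). At 1 h alone it was -0.0011 (exact permutation p = 1) and 0.024 (exact permutation p = 0.536). In shares of the 4 GluN2 genes, Grin2a went from 33.6% ± 1.53 to 28.5% ± 0.17 in DMSO and from 34% ± 0.24 to 27.5% ± 0.47 in MM401 between water and bicuculline at 4 h. Grin2b went from 63.4% ± 1.22 to 68.8% ± 0.27 and from 63.3% ± 0.67 to 69.6% ± 0.89.

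**Figure D4:**
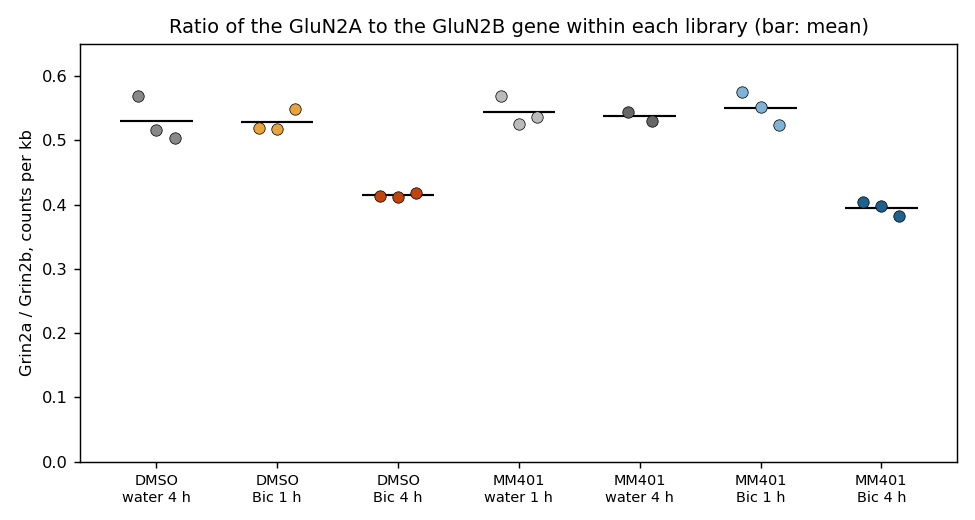
Ratio of Grin2a to Grin2b counts per kb in each library: the vertical axis starts at 0, points are libraries by group and bars are group means. The 6 libraries of bicuculline 4 h lie between 0.383 and 0.419 and all others between 0.504 and 0.575.

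Grin2c and Grin2d, the genes of the GluN2 subunits typical of cerebellum and of brainstem or interneurons, were sparsely transcribed, with 68 to 165 and 117 to 260 counts per library. Grin2d was lower after 4 h of bicuculline in MM401, where water gave 3.59 and 3.06 CPM and bicuculline 2.19, 2.43 and 1.93. The groups did not overlap, and the log2 fold change was -0.61 ± 0.21 (adjusted p = 0.0241), -0.68 with library totals. It was not called without replicate 3 of the treated group or replicate 1 of the water group, with values of -0.75 to -0.51 over the 5 left-out libraries. In DMSO Grin2d gave 3.48, 2.45 and 2.02 CPM in water, 2.97, 3.13 and 2.31 in bicuculline at 1 h and 2.51, 2.47 and 2.09 at 4 h. The water libraries span the treated ones, and the log2 fold change at 4 h was -0.16 ± 0.19 (adjusted p = 0.521). It was -0.42 with library totals (adjusted p = 0.050, just under the threshold) and 0.070 without replicate 1 of the water group.

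Grin2d in MM401 at 1 h gave 3.27, 2.88 and 2.79 CPM in water and 3.89, 2.53 and 2.38 in bicuculline, with a log2 fold change of -0.036 ± 0.19. Grin2c stayed between 1.16 and 2.34 CPM in all 20 libraries, and every group overlapped every neighbour in the order of their means. Its log2 fold changes were -0.25 ± 0.23 and 0.015 ± 0.23 in DMSO at 1 h and 4 h, and 0.24 ± 0.23 and 0.13 ± 0.27 in MM401. The 95% interval at 4 h in DMSO ran from -0.45 to 0.48, and the estimate was -0.27 with library totals. Its coefficient of variation within groups ran from 2.39% to 35.7%.

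Grin3a, the gene of the juvenile GluN3A subunit, had the clearest course in time. In DMSO with water it gave 98.4, 91.9 and 88.2 CPM, and with bicuculline 70.3, 69.7 and 73.8 after 1 h and 131, 115 and 114 after 4 h. None of these 3 groups overlapped another. Against water at 4 h it was lower by 0.38 at 1 h (log2 fold change -0.38 ± 0.075, adjusted p = 0.000277) and higher at 4 h (0.37 ± 0.075, adjusted p = 0.000288). Both passed without each library in turn, and the fall at 1 h was -0.57 with library totals, but the rise at 4 h was 0.098 there and did not pass (adjusted p = 0.202). Between 1 h and 4 h of bicuculline Grin3a rose by 0.75 ± 0.075 (adjusted p = 8.09e-08), 68.3%.

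The water groups of MM401 show how far Grin3a differed between time points without bicuculline. The time point and the time since MM401 was given cannot be told apart there. Grin3a gave 71.7, 66.4 and 71.6 CPM in water at 1 h and 97.7 and 83.3 in water at 4 h. The groups did not overlap, and water at 1 h was at the level of DMSO with bicuculline at 1 h. Grin2a and Grin2b did not overlap between these water groups either, nor did 31.9% of all tested genes. Only 0.867% of all tested genes were called from 1 h to 4 h in water. The log2 fold change of Grin3a there was 0.37 ± 0.083 (adjusted p = 0.0293). It was called in 1 of the 5 fits that left out a library, with values from 0.25 to 0.49, and did not pass without any of the 3 libraries of 1 h or without replicate 1 of 4 h. The DMSO comparison at 1 h used water at 4 h, so time and bicuculline cannot be told apart in its lower value for Grin3a.

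Against water of the same time, Grin3a in MM401 was not lower at 1 h, with 83.3, 83.9 and 69.9 CPM in bicuculline. The range overlaps that of water at 1 h, and the log2 fold change was 0.18 ± 0.075 (adjusted p = 0.0666), and -0.040 with library totals. Without replicate 3 of bicuculline at 1 h it was 0.27 and passed (adjusted p = 0.00909), as did Grin2a (0.35, adjusted p = 0.0495) and Grin2b (0.30, adjusted p = 0.0383). At 4 h in MM401 bicuculline gave 112, 105 and 101 CPM, all above the 2 water libraries. Its 0.23 ± 0.084 (log2) passed (adjusted p = 0.0313), but it did so only without replicate 3 of bicuculline or replicate 1 of water among the 5 fits with a library left out, and not with DESeq2 (adjusted p = 0.0534), library totals (0.15, adjusted p = 0.0961) or all 21 libraries (0.20, adjusted p = 0.111).

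From 1 h to 4 h of bicuculline, Grin1 and Grin3a rose in DMSO, 2 of the 6 members, where 34.2% of all tested genes were called. In MM401, where 33.6% were called, Grin3a rose by 0.42 ± 0.075 (adjusted p = 0.000126) and Grin2a fell by 0.64 (log2 fold change -0.64 ± 0.14, adjusted p = 0.00103). Both MM401 calls passed without each of the 6 libraries in turn. The DMSO change of Grin1, 0.30 ± 0.090 (adjusted p = 0.0123), did not pass in 3 of 6 such fits, those without replicate 1 or 3 at 1 h or replicate 2 at 4 h. It did not pass with library totals either (0.22, adjusted p = 0.0511) or with all 21 libraries (0.26, adjusted p = 0.0607). Grin1 in MM401 had 0.17 ± 0.090 (adjusted p = 0.148), and passed with library totals (0.25, adjusted p = 0.0211) and without replicate 1 of MM401 with bicuculline 1 h (0.26, adjusted p = 0.0415). Grin2a in DMSO had -0.27 ± 0.14 (adjusted p = 0.134), and passed with library totals, at -0.35. Its groups did not overlap, nor did those of 43.3% of all tested genes.

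MM401 itself was followed by no called change in any member. Against DMSO, 0 of 6 members were called in water at 4 h, where 0.0826% of all tested genes were called by edgeR, 0 in bicuculline at 1 h, where 0.0059% were, and 0 in bicuculline at 4 h, where 0% were. At an unadjusted p under 0.05 the numbers of genes were 2194, 540 and 1309, and DESeq2 called 162, 14 and 7. In bicuculline at 4 h the widest gap on the log2 scale was that of Grin2a, with a log2 fold change of -0.23 ± 0.14 (95% interval -0.52 to 0.051). Grin2a gave 736 ± 43.2 CPM in DMSO and 627 ± 62.6 in MM401 (SD, n = 3), with no overlap. Grin3a did not overlap there either, nor did 17.5% of all tested genes. Grin3a differed by -0.18 ± 0.075 there (unadjusted p = 0.0267, adjusted p = 0.639). In water at 4 h Grin2a had 0.21 ± 0.15, which passed without replicate 1 of DMSO with water (0.42, adjusted p = 0.0483). In that fit 1272 of 16958 genes were called, against 14 with all 20 libraries.

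The responses at 4 h under MM401 and DMSO were also set against each other directly. No member passed this test, in which 0% of genes were called by edgeR and 2552 had an unadjusted p under 0.05, while DESeq2, which gave an adjusted p to 2164 genes, called 436 of those. The response of Grin2a was lower under MM401 by 0.45 (log2 difference -0.45 ± 0.20, unadjusted p = 0.0401, adjusted p = 0.313) and that of Grin2b by 0.37 (-0.37 ± 0.16, unadjusted p = 0.0350, adjusted p = 0.301). Without replicate 1 of DMSO with water both passed, at -0.65 (adjusted p = 0.0194) and -0.51 (adjusted p = 0.0270). In that fit 1551 of 16958 genes were called, 400 higher and 1151 lower, so the calls of these members came with those of many other genes. Over the 2350 tested genes of at least 100 kb the median of the same difference was -0.20, and 11.7% of them were lower than Grin2a and 19.5% lower than Grin2b. At 1 h, with both responses taken against water at 4 h, 0% of genes and 0 members were called, and 1326 genes had an unadjusted p under 0.05 (DESeq2 called 5). The values of the members there ran from -0.30 ± 0.28 for Grin2d to 0.55 ± 0.35 for Grin2c.

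Gene length moved with these responses. Grin2a, Grin2b and Grin3a exceed 100 kb. The median log2 fold change over genes of that length was 0.19 and 0.23 for DMSO at 1 h and 4 h, and 0.19 and 0.053 for MM401. Among them Grin2b was ordinary in DMSO at 4 h, above 46.1%, and Grin3a was above 64.0%. Grin2a was lower, above only 16.3% in DMSO and 7.74% in MM401 at 4 h. Grin3a at 1 h in DMSO was above 1.28% of long genes. With the trend over gene length removed from each library, Grin2a at 4 h in DMSO was -0.43 and passed (adjusted p = 8.33e-05), and -0.62 in MM401 (adjusted p = 4.69e-06). Grin2b was then called lower at 4 h in MM401 (-0.17, adjusted p = 0.0239) and at 1 h in DMSO (-0.16, adjusted p = 0.0190). Grin3a at 4 h in DMSO was then 0.14 (adjusted p = 0.0650), and Grin1 in DMSO was 0.33 (adjusted p = 0.00796).

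Sums of cell-type markers, scaled with TMM, also differed between water and bicuculline, but not for every class. The calls of markers stand beside those of genes at large. Of all tested genes 49.2% were called in DMSO and 44.6% in MM401 at 4 h. At 1 h these shares were 44.6% in DMSO and 39.9% in MM401. The 5 neuronal markers summed to 2550 to 2986 CPM in DMSO with water and 4095 to 4278 with bicuculline at 4 h, and in MM401 to 2952 to 2984 and 3726 to 3996. Of these 5, 3 were called higher and 2 lower in DMSO at 4 h, and 2 higher and 2 lower in MM401. The 5 inhibitory-neuron markers summed to 326 to 353 CPM in DMSO water and 646 to 689 in bicuculline at 4 h, with 2 of 5 called higher. The 4 excitatory-neuron markers summed to 478 to 613 and 915 to 1013, with 2 of 4 higher. Astrocyte markers summed to 459 to 692 CPM in DMSO water and 602 to 678 in bicuculline at 4 h, with 0 of 6 called. Microglia markers in DMSO went from 27 to 30.8 CPM up to 31.7 to 40.5, with 2 of 5 called higher, and oligodendrocyte-lineage markers from 168 to 196 CPM up to 202 to 217, with 3 of 7 higher. In MM401 the sums of all 3 non-neuronal classes were higher in bicuculline than in water at 4 h, with no overlap. Of all tested genes 66.6% did not overlap in that comparison either. Astrocyte markers went from 425 to 525 CPM up to 593 to 667, with 3 of 6 called higher. Microglia markers went from 27.7 to 29.7 CPM up to 37.9 to 42.5, with 4 of 5 higher. Oligodendrocyte-lineage markers went from 174 to 187 CPM up to 214 to 226, with 3 of 7 higher. Inhibitory-neuron markers in MM401 went from 331 to 384 CPM up to 590 to 654, with 3 of 5 higher, and excitatory-neuron markers from 607 to 613 CPM up to 843 to 948, with 2 of 4 higher. After 1 h of bicuculline the astrocyte sums were 731 to 837 CPM in DMSO, with 2 of 6 called higher and 1 lower, and 797 to 873 in MM401 against 527 to 710 in water at 1 h, with 3 of 6 higher. The part of these markers in the member results was not tested.

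Other genes around the receptor were taken from a list of 48, of which 47 were tested. In bicuculline at 4 h in DMSO 13 were higher and 11 lower, 24 in all, a share close to the 49.2% of all tested genes, with a median log2 fold change of 0.041 against -0.024 over all genes, and with library totals 7 were higher and 26 lower. In MM401 at 4 h 12 were higher and 18 lower, 30 in all where 44.6% of all tested genes were called, with a median of -0.14 against 0.016, and 16 in all were called without replicate 1 of MM401 with water 4 h, a fit that called 5491 of 17279 genes. At 1 h 10 were higher and 6 lower in DMSO, 16 of 47 where 44.6% of all tested genes were called, and 11 higher and 8 lower in MM401, 19 of 47 where 39.9% were. With library totals these became 6 and 18 in DMSO and 4 and 19 in MM401, in fits that called 8654 and 7817 of all 16959 genes. Of the genes called at 4 h, 16 were called in both pretreatments, 66.7% of those of DMSO and 53.3% of those of MM401, 8 higher and 8 lower in each. The same overlap over all tested genes is not given here, so these shares cannot be set against genes at large. None of the 47 was called between MM401 and DMSO or in the interactions by edgeR, but without replicate 1 of DMSO with water 17 were called between MM401 and DMSO in water and 13 in the interaction at 4 h, in the fits that called 1272 and 1551 of 16958 genes. DESeq2, which gave 16 of the listed genes an adjusted p in that interaction, called 3 of them. With the shallow library added, 16 were called in DMSO at 4 h, 7 in DMSO at 1 h and 10 in MM401 at 1 h, and the numbers over all 16784 genes tested there were 6411, 5223 and 4599.

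Of the 11 scaffold genes, 4 were higher and 1 lower in DMSO at 4 h and 1 was higher and 5 were lower in MM401. In all 5 of 11 and 6 of 11 were called, where 49.2% and 44.6% of all tested genes were, so the numbers called are near those of genes at large. Dlg1, which encodes the scaffold SAP97, went from 439 to 919 CPM in DMSO (1.07 ± 0.093, adjusted p = 3.71e-09) and from 487 to 785 in MM401 (0.69 ± 0.10). Dlg2, encoding PSD-93, went from 4298 to 6099 CPM in DMSO (0.51 ± 0.15, adjusted p = 0.00657), and in MM401 had -0.053 ± 0.16. The difference between pretreatments passed for none of the scaffolds with edgeR and all 20 libraries.

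Of the 12 trafficking and auxiliary genes, 4 rose and 4 fell in DMSO at 4 h, and 5 rose and 4 fell in MM401. Of all tested genes 49.2% were called in DMSO and 44.6% in MM401 at 4 h. Lin7a, part of the adaptor that carries the receptor along dendrites, rose in DMSO from 211 to 336 CPM (0.67 ± 0.089, adjusted p = 1.74e-06), while its relative Lin7b fell from 3.0 to 1.51 CPM (-0.99 ± 0.22, adjusted p = 0.000656). In MM401 Lin7a had 0.36 ± 0.10 and passed, and Lin7b had -0.33 ± 0.25 and did not. Of the 15 kinases, phosphatases and signalling genes, 2 rose and 5 fell in DMSO, and 1 rose and 8 fell in MM401, beside the same shares of all tested genes. Cdk5r1, the activator p35 of the kinase CDK5, fell from 34.1 to 23.6 CPM (-0.53 ± 0.11, adjusted p = 0.000405) and Cdk5 from 7.89 to 5.48 CPM (-0.53 ± 0.20, adjusted p = 0.0321). In MM401 neither passed, at -0.070 ± 0.12 and -0.31 ± 0.22.

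Among the co-agonist genes 1 rose and 1 fell in DMSO at 4 h, of 5 tested, and 3 rose and 1 fell in MM401. Of all tested genes 49.2% and 44.6% were called in these comparisons. In DMSO Srr, the serine racemase that makes D-serine, fell from 52.4 to 37.4 CPM (-0.49 ± 0.099, adjusted p = 0.000344). Slc1a4, a transporter of neutral amino acids including serine, rose there from 67.0 to 88.2 CPM (0.40 ± 0.062, adjusted p = 1.73e-05). Both passed in MM401 too, at -0.31 ± 0.11 and 0.48 ± 0.071. Of the 3 regulators of subunit gene transcription, Sp4, a factor that binds GC boxes, rose in DMSO (0.37 ± 0.053, adjusted p = 5.24e-06) and MM401 (0.33 ± 0.060). Nrf1 in DMSO had 0.16 ± 0.054 (adjusted p = 0.0182) with TMM but -0.12 with library totals (adjusted p = 0.105), and in MM401 had 0.086 ± 0.061. Slc1a4 and Sp4 in DMSO did not pass with library totals, at 0.12 (adjusted p = 0.276) and 0.10 (adjusted p = 0.163). The other genes named here from the list, Dlg1, Dlg2, Lin7a, Lin7b, Cdk5, Cdk5r1 and Srr, passed in DMSO at 4 h in the same direction under both scalings, with Dlg2 at 0.25 (adjusted p = 0.0373) and Lin7a at 0.41 with library totals.

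Grin3b had 28, 9 and 12 counts in DMSO with bicuculline at 1 h against 3, 4 and 8 in DMSO with water. The groups did not overlap and it was called (1.79 ± 0.54, adjusted p = 0.00959), but not without replicate 1 of the treated group (1.19, adjusted p = 0.114) or replicate 2 of the water group (1.55, adjusted p = 0.0515). In MM401 at 1 h it had 0.45 ± 0.58.

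**Figure D5:**
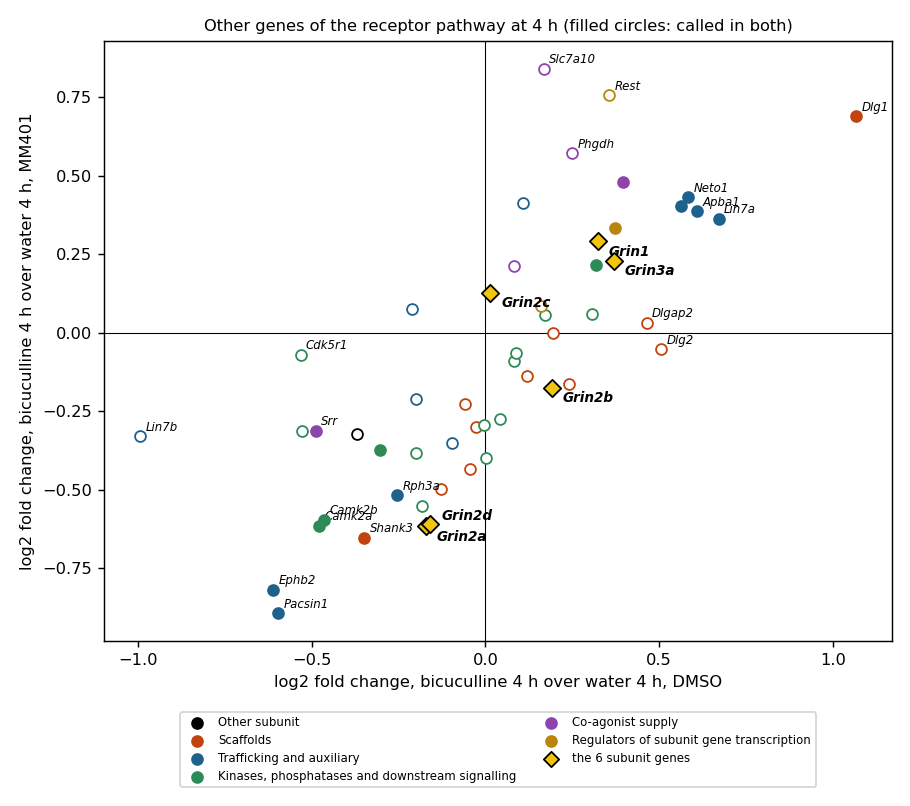
Log2 fold changes at 4 h of bicuculline over 4 h of water, in DMSO (horizontal) and MM401 (vertical), for 47 genes around the receptor, coloured by role, and for the 6 members as diamonds. Filled circles, 16 genes, were called in both pretreatments, with Dlg1 at the upper right and Grin2a and Grin2d lying low on the vertical axis at -0.62 and -0.61.

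The members also differed in which genes ran most like them. Over the 20 libraries, Pearson's r of log2 CPM was 0.982 between Grin2a and Erc2, a presynaptic active-zone gene, and 0.978 between Grin2a and Scn8a, a sodium channel gene. Grin3a ran closest to Xpo1 (0.961), the nuclear exporter, and Tox3 (0.960), and Grin2b to Atrnl1 (0.964) and Ntrk3 (0.958). Grin1 ran closest to Abcc8 (0.890) and Rps6ka2 (0.886), Grin2d to Shank1 (0.883) and Miat (0.871), and Grin2c to Grn (0.724) and Fpgs (0.606). Libraries share the treatments, so these values describe likeness over groups as much as over replicates, and they were picked as the highest of 11849 or 11850 genes. Erc2 in MM401 at 4 h was lower by 0.60 (-0.60 ± 0.12, adjusted p = 0.000464), close to the value of Grin2a, and Xpo1 repeated the course of Grin3a in DMSO, with -0.38 ± 0.066 at 1 h and 0.69 ± 0.066 at 4 h.

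Among the members themselves r over the 20 libraries was 0.769 for Grin2a and Grin2d, 0.660 for Grin2a and Grin2b and 0.658 for Grin1 and Grin3a. It was -0.424 for Grin2a and Grin3a. Grin2c had values between -0.022 and 0.20 with each of the other 5, at counts that were low in every library.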

How the data were processed

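The table the authors deposited holds unnormalised counts over each gene's whole span, on mm10 per the submitters' processing notes. Bowtie2, featureCounts, UMI-tools, deepTools and DESeq2 are named in the submitters' processing notes, without versions, and the use of strand is not given in the sources used here. From these counts, with R 4.3.3, edgeR 4.0.16, limma 3.58.1 and filterByExpr by group (minimum count 10, minimum total 15), 16959 genes were kept and scaled by TMM, and 1 robust quasi-likelihood model with a mean per group was fitted to 20 libraries. All 12 comparisons used Benjamini-Hochberg adjustment over all genes kept, a threshold of 0.05 and two-sided tests. Alternatives were DESeq2 1.42.0, library totals, no filter, all 21 libraries, a replicate block, removal of a gene-length trend, each pair of groups alone and each library left out. The members, gene lists and tests were chosen with earlier results of these data known. Pathway genes named are the 2 per role with the largest change among those called in DMSO at 4 h, plus Grin3b. Genes of like pattern are the 2 with the highest Pearson r over the 20 libraries among named genes with a mean of at least 2 CPM. Levels per length are CPM per kb of span.

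Replicate numbers recur in every group, with no meaning given in the labels. Same-numbered libraries all deviated together (r over 0.1, 3 pairs) in 1 of 10 comparisons, that of both pretreatments after 4 h of bicuculline, where the numbers were taken to pair libraries. Over all 57 same-numbered pairs the median r was 0.0898. The interval of 95% given with a fold change gives the uncertainty of the difference between group means. It rests on the spread between libraries in the shared fit and does not give the range of single libraries. Comparisons within DMSO share the water group, and bicuculline groups enter several comparisons.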

Additional observations from a re-analysis of the deposited data

How the results depend on the processing

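Over the alternatives other than leaving out a library, 431 of 488 member values kept their direction and side of the threshold, 11 no longer passed, 11 newly passed and 35 reversed, and in each case the cause was not tested unless stated. All reversed values but that of Grin2b at 1 h in DMSO with the length trend removed were below the threshold. With library totals the values were, for 1 h in DMSO, -0.16 (Grin1), -0.077 (Grin2a), -0.069 (Grin2b) and -0.075 (Grin2d), and for 4 h in DMSO -0.073 (Grin2b) and -0.27 (Grin2c). They were -0.067 (Grin1), -0.0098 (Grin2a), -0.030 (Grin2b) and -0.040 (Grin3a) for 1 h in MM401, -0.0037 for Grin2b from 1 h to 4 h of bicuculline in DMSO and -0.029 for Grin1 from 1 h to 4 h in water. Between MM401 and DMSO they were -0.0090 for Grin1 in water, -0.012 for Grin2d at 1 h, and 0.0022 (Grin2c) and 0.00034 (Grin2d) at 4 h, and in the interaction at 4 h 0.16 (Grin1) and 0.055 (Grin3a). With the length trend removed, Grin2a and Grin2b were each -0.16 at 1 h in DMSO, where 2 members were then called, Grin2b was -0.080 at 4 h in DMSO, and Grin2a, Grin2b and Grin3a were -0.061, -0.087 and -0.016 at 1 h in MM401. Grin2b was 0.062 from 1 h to 4 h of bicuculline in MM401, and Grin3a 0.045 in the interaction at 4 h. With all 21 libraries, Grin2c was -0.0044 at 4 h in DMSO, Grin2b 0.049 at 4 h in MM401 and -0.041 between MM401 and DMSO in water, Grin2a and Grin2b were -0.026 and -0.043 from 1 h to 4 h in water, and 0.11 and 0.099 in the interaction at 1 h. The counts of members called were then 2 at 4 h in MM401, 1 from 1 h to 4 h of bicuculline in DMSO and 0 between the water times. With the 2 groups alone, Grin2c at 4 h in DMSO was -0.0051. The difference in the log2 ratio of Grin2a to Grin2b between bicuculline and water in MM401 was 0.024 with 1 h alone, 0.017 against water of the same time, and -0.45 with 4 h alone.

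With the replicate number as a block, 1 member was called at 1 h in MM401 (Grin3a, 0.18, adjusted p = 0.0297), Grin2d was also called from 1 h to 4 h of bicuculline in MM401 (-0.40, adjusted p = 0.0361) and Grin2c at 4 h in DMSO was -0.0035. The block changed no other member's call, including the comparison in which the numbers pair the libraries.

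Leaving out each library in turn, the counts of members called ran from 1 to 3 at 1 h and at 4 h in DMSO, 0 to 3 at 1 h and 2 to 3 at 4 h in MM401, 1 to 2 (DMSO) and 2 to 3 (MM401) from 1 h to 4 h of bicuculline, and 0 to 1 between the water times. They ran from 0 to 1 between MM401 and DMSO in water and 0 to 2 in the interaction at 4 h. The numbers over all tested genes moved between such fits too. In DMSO they ran from 6241 of 16901 to 7892 of 16958 at 1 h, and from 7287 of 16948 to 8167 of 16958 at 4 h. Values of Grin1 that changed sign ran -0.051 to 0.096 (1 h in DMSO), -0.13 to 0.19 (1 h to 4 h in water), -0.088 to 0.23 (MM401 against DMSO in water), -0.19 to 0.13 (the interaction at 4 h), -0.073 to 0.24 (the interaction at 1 h). Values of Grin2a that changed sign ran -0.31 to 0.033 (4 h in DMSO), -0.28 to 0.034 (the interaction at 1 h). Values of Grin2c that changed sign ran -0.084 to 0.12 (4 h in DMSO), -0.20 to 0.42 (4 h in MM401), -0.51 to 0.031 (1 h to 4 h of bicuculline in MM401), -0.38 to 0.20 (1 h to 4 h in water), -0.53 to 0.049 (MM401 against DMSO in water), -0.44 to 0.084 (MM401 against DMSO at 4 h), -0.22 to 0.42 (the interaction at 4 h). Values of Grin2d that changed sign ran -0.044 to 0.33 (1 h in DMSO), -0.35 to 0.070 (4 h in DMSO), -0.28 to 0.11 (1 h in MM401), -0.20 to 0.16 (MM401 against DMSO at 1 h). Values of Grin3a that changed sign ran -0.16 to 0.084 (MM401 against DMSO in water). Grin2c and Grin2d had 68 to 260 counts per library, and the parts of counting error and of spread between libraries in their errors were not separated.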

Other observations

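The library left out of every comparison, replicate 3 of MM401 with water 4 h, held 30 counts of Grin1, 202 of Grin2a, 383 of Grin2b, 0 of Grin2c, 4 of Grin2d and 40 of Grin3a. As a rate of its total, Grin2a was at 638 CPM (95% Poisson interval 553 to 732, counting error only) and Grin2b at 1209 (1091 to 1337). The other 2 libraries of the group were at 975 to 1022 and 1979 to 2025 on the same scale. Grin3a was at 126 (90.2 to 172), and the other 2 libraries were at 86.5, below that interval, and at 102, inside it.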
